A study of Mus musculus with 4 samples.

Results

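The genes described here are 34 genes that mark the cells around the ovarian follicle, namely theca cells, stroma, pericytes and smooth muscle. They were chosen by name, and a gene was counted as looped when either of its annotated ends lay within 2.5 kb of a chromatin loop anchor. By this rule 18 of the 34 genes had a loop in at least 1 library, which is 52.9%, against 9139 of 21631 protein-coding genes, or 42.2%. The loops were called by Micro-C, in which micrococcal nuclease cuts cross-linked chromatin before neighbouring fragments are joined and sequenced, and a loop is a pair of sites that met more often than their surroundings on the contact map.

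The cells were granulosa cells collected by puncture of the ovaries of mice aged 21 days. Follicle growth had been driven in all mice by 5 IU of eCG (equine chorionic gonadotropin, the PMSG of the labels), given for 46 h by the labels' characteristics or 44 h by their protocol. The PMSG group (2 libraries) was taken at that point, 0 h after human chorionic gonadotropin (hCG). The hCG group (2 libraries) was taken 6 h after 5 IU of hCG, an analogue of the ovulatory surge of luteinizing hormone, so that the comparison sets follicles before that stimulus against follicles after it. The labels name no strain or genotype, and they call the libraries separate samples without saying whether each came from separate mice, so p-values measure only a spread between samples that may be technical.

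Theca cells form the layer outside the follicle's basement membrane. They are recruited and maintained under hedgehog signals from granulosa cells, read out through the receptor Ptch1 and the Gli factors, and they make androgen with the enzyme Cyp17a1, which granulosa cells then convert to oestrogen. Fibroblast-like stroma carries the platelet-derived growth factor receptors and lays down the matrix. Smooth muscle cells of the theca externa contract at ovulation, and Myocd is a coactivator that turns on smooth muscle genes. Many of these genes are known as markers of cells other than granulosa cells, and a loop list is no measure of RNA.

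The lists held 8305 and 6533 loops in PMSG replicates 1 and 2 and 7664 and 7935 loops in hCG replicates 1 and 2. The contacts at their called pixels summed to between 272470 and 393852 per library. A pixel is a pair of bins of 5, 10 or 25 kb, and the lists give its observed contacts and the contacts expected from its local surroundings. Only called pixels are listed, so the contacts at a site without a call were not analysed here. Since the lists hold no RNA, the labelled cell type could not be set against transcripts. Among marker genes of the cell types such a collection could hold, 13 of 14 granulosa genes had a loop, against 1 of 7 endothelial, 2 of 6 leukocyte and 2 of 6 oocyte genes. The share over all protein-coding genes was 42.2%. In lists of genes not particular to granulosa cells, 12 of 14 contractile, 8 of 12 stroma and 11 of 16 hedgehog genes had a loop. These counts thus do not tell which cells were present. In bulk libraries, a loop carried by fewer cells and a weaker loop in every cell cannot be told apart.

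Per library, 8 and 9 of the 34 genes had a loop before hCG and 9 and 12 after it. That is 23.5% and 26.5% before hCG and 26.5% and 35.3% after it. Over all protein-coding genes, the share was 27.2% and 21.7% before hCG and 26.6% and 27.0% after it. The highest value of the 34 genes came from hCG replicate 2 alone, and PMSG replicate 2 and hCG replicate 1 held the same number. The means were 8.50 ± 0.707 (SD, n = 2) and 10.5 ± 2.12 (SD, n = 2) genes, a difference of 2 that did not exceed the spread (exact permutation test, two-sided, p = 0.667) and was 0.5 without hCG replicate 2.

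The loops at these genes numbered 13 and 12 before hCG and 15 and 20 after it. Loops at an end of any protein-coding gene numbered 4749 and 3608 before hCG and 4536 and 4597 after it. The groups of the 34 genes did not overlap at this reach of 2.5 kb, but they overlapped at 22 and 18 against 21 and 26 loops with a reach of 10 kb. They touched at 11 and 10 against 11 and 13 with the gene end inside the anchor, and at 12 and 12 against 12 and 17 with all FDR values under 0.01. In 5 kb bins they overlapped at 7 and 1 against 3 and 5. They stayed apart at 11 and 12 against 13 and 15 in lists of equal length. In bins of 5 and 10 kb they also stayed apart, at 10 and 6 against 12 and 13. The difference in means was 5 loops (exact permutation test, two-sided, p = 0.333, the smallest p that 2 libraries against 2 allow), and 2.5 loops without hCG replicate 2. Per 1000 loops of a list, the counts were 1.57 and 1.84 before hCG and 1.96 and 2.52 after it. Loops at an end of any protein-coding gene were 57.2% and 55.2% of a list before hCG and 59.2% and 57.9% after it. The groups did not overlap in that share either, so the separation is not particular to the 34 genes. Pdgfra alone supplied 5 and 3 loops before hCG and 6 in each hCG library, and it and Postn were the 2 of 18 looped genes with more loops in each hCG library than in each PMSG library, against 7.69% of all looped genes. The other genes together had 8 and 9 loops before hCG and 9 and 14 after it, with PMSG replicate 2 and hCG replicate 1 at the same count. A loop can be called in a library with its anchor just beyond 2.5 kb from the gene. When the distinct loops of these genes were counted wherever they were called, a count chosen after the data were seen, there were 21 and 18 before hCG and 18 and 22 after it, and at Pdgfra 7 and 6 before hCG and 6 and 7 after it. The groups then overlapped, for all the genes and for Pdgfra.

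**Figure D1:**
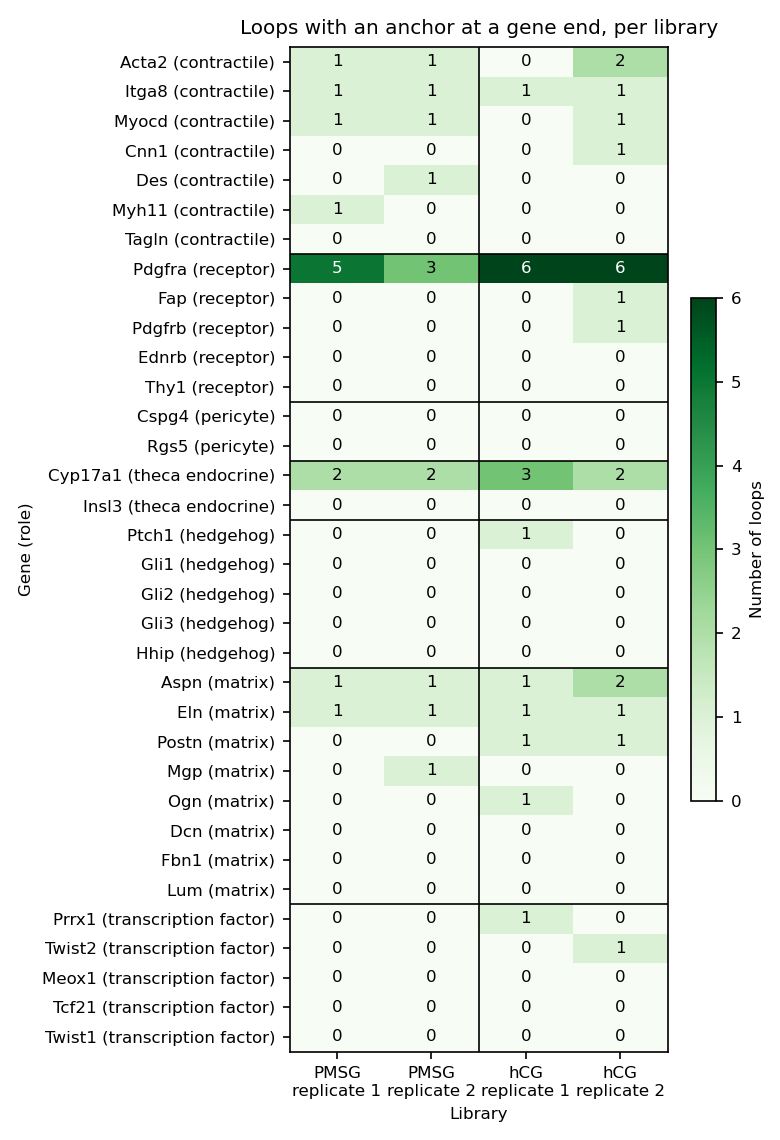
Number of loops with an anchor within 2.5 kb of either end of each of the 34 genes (rows, grouped by role) in each of the 4 libraries (columns), with the number printed in each cell. Pdgfra stands out with 3 to 6 loops per library, and 16 genes have 0 in all 4 libraries.

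The loops at these genes spanned a median of 210 and 212.5 kb before hCG and 275 and 200 kb after it, where span is the distance between anchor midpoints. Over all loops of a list the median was 175 and 195 kb before hCG and 150 and 160 kb after it. The medians at the 34 genes lay above those of the whole list in each library, and those of the hCG libraries lay on either side of both PMSG libraries. The difference of 26.25 kb between group means was within the spread (exact permutation test, two-sided, p = 1), and it was -11.25 kb without hCG replicate 1. The longest loop measured 1300 kb in both PMSG libraries, 840 kb in hCG replicate 1 and 720 kb in hCG replicate 2, and in all 4 libraries it was a loop of Pdgfra. In hCG replicate 2 the 840 kb loop was called at 855 kb with an anchor beyond 2.5 kb from the gene, so it is not in that value.

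Loops of different libraries were taken as the same when both anchor midpoints lay within 20 kb, which gave 32 distinct loops at the 18 genes. Of these, 1 was hCG-only (called in both hCG libraries and neither PMSG library), 2 were PMSG-only (the reverse), 13 were constant (called in all 4) and 16 had other patterns, most of them calls of a single library. By gene, Pdgfra was at the hCG-only loop, 1 of 18 or 5.56%, against 8.31% of all protein-coding genes with a loop. Acta2 and Pdgfra were at the PMSG-only loops, 2 of 18 or 11.1%, against 5.46%. Constant loops touched 9 of 18 genes, against 41.7%. With counts of 1 and 2, the shares for hCG-only and PMSG-only loops are read as near the background. Single libraries move these counts, and the background with them. The hCG-only count was 5 without hCG replicate 1 and 3 without hCG replicate 2, where 25.9% and 24.8% of all looped genes were at such loops. The PMSG-only count was 4 without PMSG replicate 1 and 4 without PMSG replicate 2, where the share of all looped genes was 15.6% and 25.1%.

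**Figure D2:**
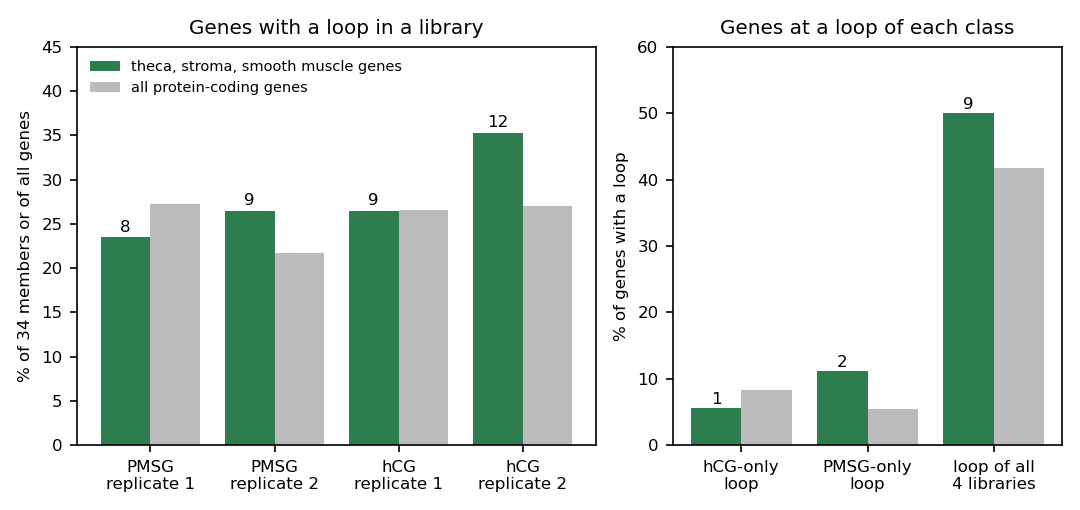
Left, percent of the 34 genes (green) and of all 21631 protein-coding genes (grey) with a loop in each library. Right, percent of the 18 looped genes and of all 9139 looped genes at an hCG-only loop, a PMSG-only loop or a loop of all 4 libraries. Numbers over the green bars are gene counts. The green bar is below the grey one in PMSG replicate 1, hCG replicate 1 (26.5% and 26.6%) and for hCG-only loops.

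Pdgfra encodes the alpha receptor for platelet-derived growth factors and marks stromal progenitors and fibroblasts. It was the only one of the 34 genes with both an hCG-only and a PMSG-only loop. It had 9 distinct loops, against a median of 1 over all genes with a loop. Only 7 of the 9139 looped genes had at least 9, and the highest count was 10 (Gja1 and Mmadhc). A gene with many loops has more chances of a class call: of the 191 genes with at least 5 distinct loops, a comparison chosen after the data were seen, 30.9% were at an hCG-only loop and 21.5% at a PMSG-only loop. The gene lies at chr5:75151322-75198206 (mm10, plus strand).

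Most Pdgfra loops had an anchor at the gene's start, so the 250 bases before an annotated transcript start (RefSeq, GRCm38.p6, chr5:75152001-75152250, plus strand) are shown, with the E-box (CANNTG) in capitals. That transcript start lies inside the gene's annotated span. The window is thus downstream of chr5:75151322, the gene end used to count loops.
Pdgfra: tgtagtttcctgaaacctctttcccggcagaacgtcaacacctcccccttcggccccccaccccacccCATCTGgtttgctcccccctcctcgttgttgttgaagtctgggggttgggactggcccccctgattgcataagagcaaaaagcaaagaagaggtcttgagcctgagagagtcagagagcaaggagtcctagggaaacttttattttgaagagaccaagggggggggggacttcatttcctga
The window was searched on both strands for the E-box, the GLI site GACCACCCA, the CArG box of serum response factor and the CTCF core. It held 1 E-box and no match to the others. Among 32851 promoter windows of the same length, 66.2% held an E-box, 0.225% the GLI site, 1.47% a CArG box and 0.417% the CTCF core. These motifs do not overlap in the printed window, and a match is a string of letters, not a bound site.

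The PMSG-only loop of Pdgfra joined the gene's start (chr5:75150001-75175000) to a site upstream at chr5:73850001-73875000, 1300 kb away, with no gene end at that site. It had 50 contacts against 17.5 expected in PMSG replicate 1, a ratio of 2.86 with a 95% Poisson interval of 2.12 to 3.77. In PMSG replicate 2 it had 37 contacts against 10.2 expected, a ratio of 3.61 (2.54 to 4.98). The intervals, here and below, cover counting error of the observed contacts only, and those of the replicates overlap. In the hCG lists the nearest loop had an anchor 452.5 kb away in replicate 1 and 445 kb away in replicate 2. The distal site kept another loop: in all 4 libraries it was called with a site about 425 kb nearer to Pdgfra, at 35, 22, 14 and 25 contacts in PMSG replicates 1 and 2 and hCG replicates 1 and 2. The 14 stands on bins of 5 kb and the others on bins of 10 kb.

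The hCG-only loop of Pdgfra joined the same start to chr5:74600001-74625000, 550 kb upstream. That anchor lies at an end of Fip1l1, an mRNA polyadenylation factor, and over Lnx1, a ubiquitin ligase. The loop had 63 contacts against 24.97 expected in hCG replicate 1, a ratio of 2.52 (1.94 to 3.23), and 79 against 29.1 in hCG replicate 2, a ratio of 2.71 (2.15 to 3.38). The ratios are alike in size to those of the PMSG-only loop, and the counts of all 4 calls are at least 37. The nearest loop of the PMSG lists differed by 177.5 kb in replicate 1 and by 180 kb in replicate 2 at the farther anchor. It was the constant loop from Pdgfra into Scfd2, which is described next.

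Besides these, 4 constant loops met Pdgfra. The first reached 840 kb upstream into the body of Scfd2, a gene of vesicle traffic, with 27 and 18 contacts before hCG and 20 and 12 after it. The second reached 720 kb upstream, also into Scfd2, with 26 and 20 contacts before hCG and 25 and 34 after it. The third spanned 185 to 200 kb upstream to a site without a gene, with 24 and 16 contacts before hCG and 17 and 44 after it. The fourth began at the gene's far end, where its transcription ends, in both hCG libraries and beyond 2.5 kb from it in both PMSG libraries. It ran 625 to 650 kb downstream, with 27 and 18 contacts before hCG and 18 and 56 after it. The group ranges of contacts overlap for all 4, but they mix bin sizes. The 44 and 56 contacts of hCG replicate 2 stand on bins of 10 and 25 kb, larger than those of the other libraries for that loop, and larger bins hold more contacts. The 12 contacts of hCG replicate 2 in the first loop and the 20 of PMSG replicate 2 in the second stand on 5 kb bins. The other libraries had 10 kb bins for those loops. At 8.98 and 15.5, the ratios to expectation of these 5 kb calls were the highest of each loop.

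**Figure D3:**
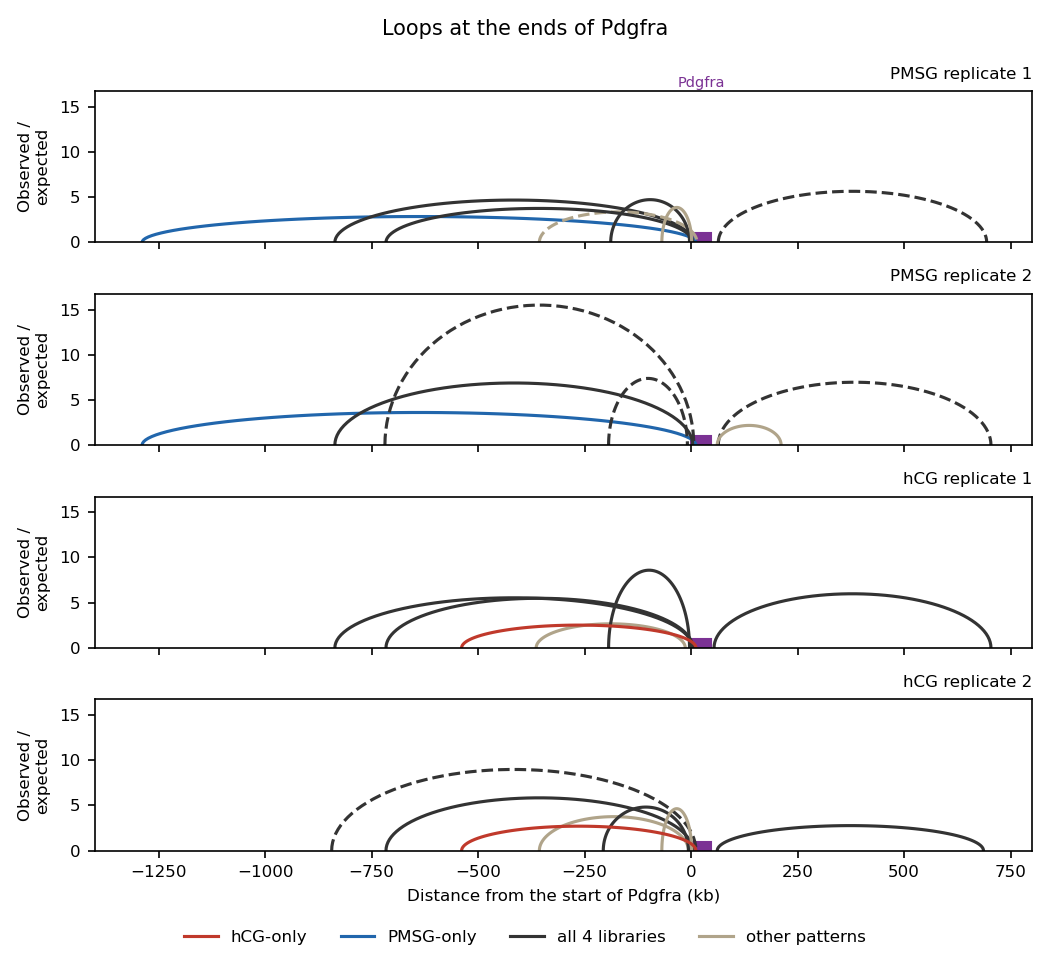
Each arc is a loop of Pdgfra in 1 library, drawn between its anchor midpoints at their distance from the gene's start in kb, with the observed over expected ratio as its height. Dashed arcs are calls of the same distinct loop whose anchor lay more than 2.5 kb from both gene ends in that library, and the purple bar is the gene. The 1300 kb arc is in both PMSG panels and the 550 kb arc in both hCG panels, while arcs of 840 and 720 kb are in all 4.

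A further loop of Pdgfra, spanning 350 to 370 kb, was called in PMSG replicate 1 and both hCG libraries, with 26, 55 and 24 contacts. The 55 stands on bins of 25 kb and the others on bins of 10 kb. A loop of 70 kb linked the start to an end of Gsx2, a homeobox gene of the forebrain. It had 21 contacts in PMSG replicate 1 against 5.43 expected and 15 in hCG replicate 2 against 3.23 expected, so it was seen in both groups. In PMSG replicate 2 alone, the far end had a loop of 150 kb with 70 contacts against 32.1 expected.

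Acta2 encodes smooth muscle alpha actin, the main actin of the contractile cell, and lies on the minus strand at chr19:34240336-34255585. Its PMSG-only loop joined the anchor at its far end (chr19:34225001-34250000) to chr19:34625001-34650000, 400 kb away. It had 72 contacts against 28.3 expected in PMSG replicate 1, a ratio of 2.54 (1.99 to 3.20), and 56 against 20.9 in PMSG replicate 2, a ratio of 2.67 (2.02 to 3.47). The ratios of the replicates differ by less than their counting intervals. The anchor is shared with an end of Stambpl1, a deubiquitinase, and the other anchor holds ends of the interferon-induced genes Ifit1 and Ifit1bl2. The loop is thus not placed at the start of Acta2, and the files do not tell which gene at the anchor it belongs to.

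That distant anchor kept a loop in all 4 libraries, to a site between Acta2 and it, near an end of the death receptor gene Fas. This constant loop of about 300 kb had 26 and 20 contacts before hCG, against 5.93 and 5.07 expected, and 23 and 88 after it, against 4.19 and 29.1 expected. It was the nearest hCG call to the PMSG-only loop, with a farther anchor 97.5 kb away in hCG replicate 1 and 100 kb away in replicate 2. In hCG replicate 2, Acta2's anchor itself was looped to Fas over 90 kb, with 32 contacts against 8.62 expected. It was also looped over 250 kb to the ends of Ch25h, a cholesterol hydroxylase, and Lipa, the lysosomal acid lipase, with 59 contacts against 24.4 expected. In hCG replicate 1, Acta2 had no loop, and the nearest anchor lay 74.4 kb from its ends.

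**Figure D4:**
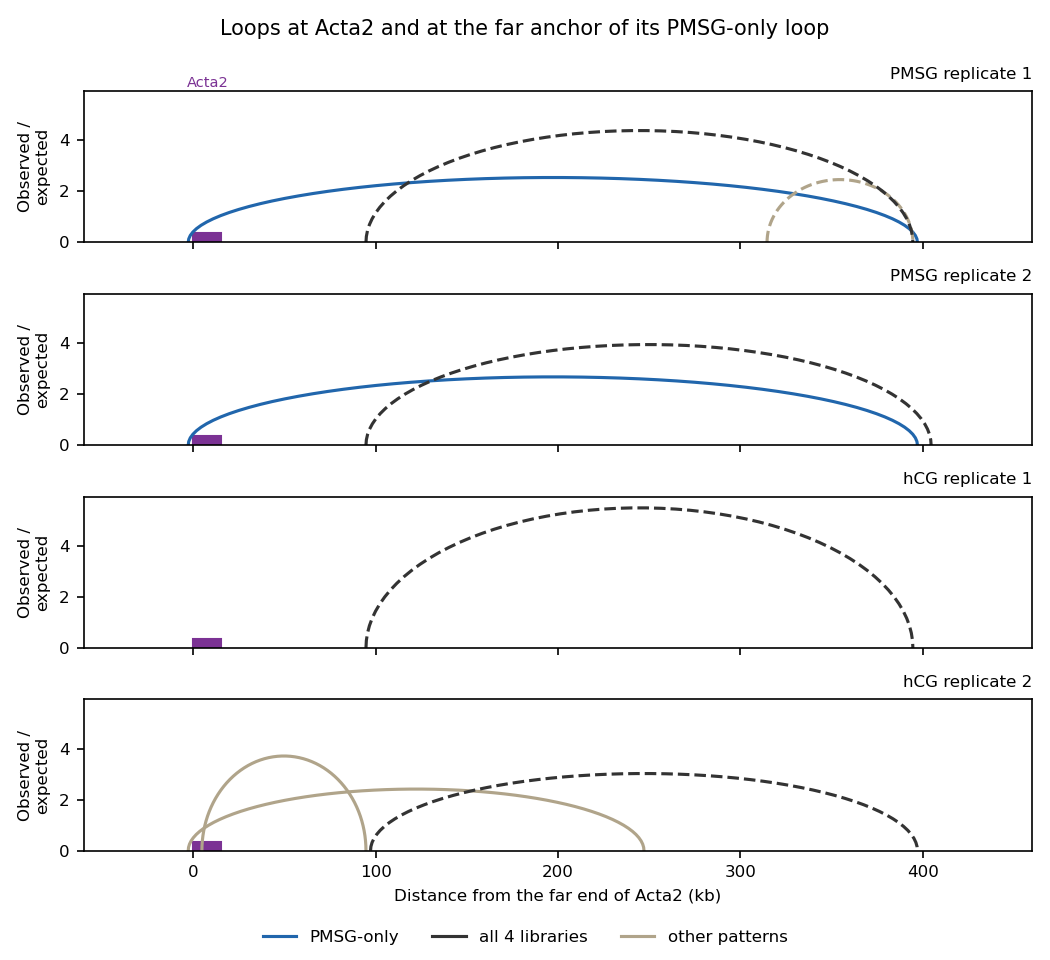
Each arc is a loop in 1 library, drawn by distance from the far end of Acta2 in kb with the observed over expected ratio as height. Solid arcs end at Acta2 and dashed arcs end at the distant anchor of its PMSG-only loop. The 400 kb arc is in both PMSG panels, the dashed arc of about 300 kb is in all 4, and hCG replicate 1 has no solid arc.

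All 3 of these loops were called in bins of 25 kb in both libraries of their group. Among all distinct loops, 28.2% of the 653 hCG-only, 33.4% of the 491 PMSG-only and 2.28% of the 3859 constant loops were called in such bins alone. Without the 25 kb calls, none of the 34 genes was at an hCG-only or PMSG-only loop, while over all looped genes 6.35% and 4.14% were.

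The other contractile and smooth muscle genes had few loops, and Itga8 had the most regular one. Itga8, an integrin subunit of smooth muscle and mesenchyme, had a single constant loop of 295 to 300 kb from its start to a site downstream of the gene without a gene end. The loop had 16 and 33 contacts before hCG, with ratios of 7.44 and 5.77, and 24 and 35 after it, with ratios of 5.05 and 5.84. The gene's start lay at the anchor in each of the 4 libraries. Its promoter window (GRCm38.p6, chr2:12301945-12302194, minus strand, written in the direction of transcription) is shown because it sits at this anchor, with 2 E-boxes and, nearest the start, a match to a wide CTCF string in capitals.
Itga8: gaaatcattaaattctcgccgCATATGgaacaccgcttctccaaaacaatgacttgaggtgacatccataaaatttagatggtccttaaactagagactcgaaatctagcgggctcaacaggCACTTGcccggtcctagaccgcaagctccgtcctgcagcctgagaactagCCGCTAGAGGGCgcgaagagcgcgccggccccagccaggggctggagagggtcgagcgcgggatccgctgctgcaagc
No CArG box, GLI site or CTCF core was found in these letters. The wide string CCNNNAGNNGGC, which leaves several letters of the CTCF core free and was chosen after this window was seen, is in 7.17% of all promoter windows and overlaps neither E-box. It was also in the window of Ptch1 and in no other window of the 34 genes. CTCF is the protein that halts loop extrusion at many loop anchors, and its binding was not measured here.

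Myocd, the coactivator that turns on smooth muscle genes with serum response factor, had a loop in 3 libraries, each a distinct loop. In PMSG replicate 1 its high end (the end at the higher coordinate, named so where the promoter table gives no strand) was joined over 410 kb with 40 contacts against 12.1 expected. In PMSG replicate 2 the same end was joined over 375 kb with 97 against 44.0, and in hCG replicate 2 the low end was joined over 450 kb with 125 against 41.3. The calls of PMSG replicate 2 and hCG replicate 2 share their distal anchor (chr11:65625001-65650000), and the gene-side anchor of PMSG replicate 1 lies inside that of PMSG replicate 2. A constant loop with an anchor inside the gene, and so outside the counting rule, spanned 480 to 485 kb with 18 and 17 contacts before hCG and 21 and 14 after it.

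The motor and thin filament genes were called in single libraries. Myh11, the smooth muscle myosin heavy chain, had in PMSG replicate 1 a loop of 55 kb within the gene, with 22 contacts against 6.65 expected. Des, the intermediate filament desmin, shared an anchor with Speg in PMSG replicate 2, in a loop of 225 kb with 49 contacts against 18.7 expected. Cnn1, calponin, had a loop of 50 kb at its start in hCG replicate 2, with 37 contacts against 16.1 expected. Tagln, an actin-binding protein, had no loop, and its nearest anchor lay 63.9 kb away in all 4 libraries. Myh11 also had a constant loop from inside the gene, 255 to 260 kb long, with 18 contacts in each of 3 libraries and 35 in hCG replicate 2, where the bins were larger.

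Cyp17a1, the enzyme that makes androgens from progestins in theca cells, had 2 constant loops and was at an anchor in each library. Its loop to an end of As3mt, an arsenic methyltransferase, spanned 65 to 75 kb and was called in 5 kb bins throughout. It had 38 contacts against 6.79 expected in PMSG replicate 1, 18 contacts, a ratio of 5.30, in PMSG replicate 2, 24 against 3.32 in hCG replicate 1 and 42 against 5.02 in hCG replicate 2. The ratios of 5.60 and 5.30 before hCG lay below those of 7.24 and 8.36 after it. Both hCG ratios were above both PMSG ratios in 27.5% of the 1351 loops with 1 bin size in all 4 libraries. The counting intervals of PMSG replicate 1 (3.96 to 7.68) and hCG replicate 2 (6.02 to 11.3) overlap.

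No other loop at an end of the 34 genes kept 1 bin size across the 4 libraries, so that here strength could be compared without a change of bin size. The positions of the called bins still differed between libraries, so the counts come from neighbouring pixels. In edgeR's quasi-likelihood fit over those 1351 loops, a set chosen after the data were seen, this loop had a log2 ratio of hCG over PMSG of 0.52 (SE 0.26), and the median over all loops of the fit was 0.15. It was not called (unadjusted p = 0.0444, Benjamini-Hochberg adjusted p = 0.70, edgeR), and 0 of 1351 loops, or 0%, passed the threshold of 0.05, with 92 at an unadjusted p below it. DESeq2 also called 0, with 5 at an unadjusted p below 0.05. A narrower set of 435 pixels at identical positions in all 4 libraries held no loop of the 34 genes.

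The other constant loop of Cyp17a1 ran 190 to 200 kb to Cnnm2, a magnesium transport gene. Its contacts were 20 and 22 before hCG and 26 and 16 after it, with overlapping ranges. The 22 and 26 stand on bins of 10 kb and the 20 and 16 on bins of 5 kb. In hCG replicate 1 a further anchor pair joined the low end of Cyp17a1 to a site 80 kb away with 37 contacts against 14.6 expected. The same distinct loop was called over 50 kb, without reaching an end of Cyp17a1, in PMSG replicate 1 and again in hCG replicate 1. Those calls had 62 contacts against 31.3 expected and 39 against 14.6. Insl3, the peptide hormone of theca cells, had no loop, and the nearest anchor was between 14.3 and 89.3 kb from it.

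Of the 5 hedgehog genes among the 34, Ptch1, the receptor and target gene, was the only one with a loop. It had 1 loop in hCG replicate 1, 275 kb from its start to a site over Ercc6l2, with 57 contacts against 26.2 expected. In the other libraries the nearest anchor lay 158 to 168 kb from Ptch1. Gli1, Gli2 and Gli3, the transcription factors of the pathway, and Hhip, its decoy receptor, had none. The nearest anchor to Gli2 lay 20.6 kb from the gene in all 4 libraries, and that to Gli3 at 19.98 kb in 3 libraries and 29.98 kb in hCG replicate 1. A loop enclosed each of these 2 genes in every library.

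Other genes of the hedgehog pathway, from a list of 16, had a loop in 11 cases, against 42.2% of all protein-coding genes. None was at a PMSG-only loop and 1, the co-receptor Boc, was at an hCG-only loop of 70 and 60 kb, with 42 contacts against 11.0 expected and 37 against 15.5. Over all looped genes, 5.46% were at a PMSG-only and 8.31% at an hCG-only loop. Constant loops met 7 of the 11, against 41.7%: the ligands Shh and Dhh, the transducer Smo, the inhibitor Sufu, and Boc, Disp2 and Scube2. Dhh is a ligand that granulosa cells send to the theca.

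Pdgfrb, the beta receptor of pericytes and theca, had 1 loop at its low end, in hCG replicate 2. It ran 60 kb to an end of the kinase gene Camk2a, with 53 contacts against 17.5 expected. A constant loop from inside Pdgfrb spanned 70 to 80 kb, with 39 and 18 contacts before hCG and 30 and 57 after it. The 57 stands on bins of 10 kb and the others on bins of 5 kb. Of 5 other genes of the platelet-derived growth factor family, 4 had a loop. The ligand gene Pdgfd was at an hCG-only loop of 105 and 100 kb, with 15 contacts against 2.54 expected and 39 against 12.3. The 15 stands on bins of 5 kb and the 39 on bins of 10 kb.

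Fap, a membrane protease of activated fibroblasts, came within reach of a constant loop only in hCG replicate 2, where the bins were of 25 kb. The loop's anchor also holds an end of Gcg, the glucagon gene, and the other anchor lies at or over Ifih1, a sensor of viral RNA. Its contacts were 34 and 38 before hCG and 29 and 94 after it, the highest value being that in the larger bins. Thy1, a surface protein of fibroblasts, and Ednrb, an endothelin receptor, had no loop, and their nearest anchors lay 76.4 to 176 kb and 84.6 to 94.6 kb away. The pericyte genes Rgs5, a regulator of G protein signals, and Cspg4, the NG2 proteoglycan, had none at their ends. A constant loop of 245 to 250 kb began inside Rgs5, with 25 and 21 contacts before hCG and 19 and 22 after it.

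All 5 looped matrix genes out of 8 (Eln, Postn, Mgp, Aspn and Ogn) were at constant loops, against 41.7% of all looped genes. Mgp and Ogn had a gene end at that loop in 1 library only. For Ogn this was a separate call of 50 kb in hCG replicate 1 that was grouped with the constant loop. No call of 80 to 85 kb reached an end of Ogn. Eln encodes elastin, and its low end was joined to Clip2 over 195 to 210 kb in each library. The loop had 17 and 28 contacts before hCG, with ratios of 5.05 and 5.45, and 17 and 14 after it, with ratios of 10.3 and 6.28. The bins were of 10 kb in PMSG replicate 2 and of 5 kb in the other libraries. Both hCG ratios lay above both PMSG ratios, as they did in 26.6% of the 3859 constant loops and in 3 of the 13 at these genes (Eln, Mgp and the loop of Cyp17a1 to As3mt). The contacts at Eln did not rise, and the counting intervals of the groups overlap.

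Postn encodes periostin, a matrix protein of tissue remodelling. It had a loop of 320 to 335 kb with 21 and 16 contacts before hCG and 29 and 16 after it. The 29 stands on bins of 10 kb and the others on bins of 5 kb. The gene's start lay at the anchor in both hCG libraries, and 4.27 kb from it in both PMSG libraries, where the same distinct loop was called with other bins. The count of 0 loops at Postn before hCG and 1 in each hCG library is thus a difference in the bins called, not in whether the loop was called. The window before the first of its 2 annotated starts (GRCm38.p6, chr3:54359017-54359266, plus strand) is shown for comparison with that of Pdgfra, since it held none of the motifs searched.
Postn: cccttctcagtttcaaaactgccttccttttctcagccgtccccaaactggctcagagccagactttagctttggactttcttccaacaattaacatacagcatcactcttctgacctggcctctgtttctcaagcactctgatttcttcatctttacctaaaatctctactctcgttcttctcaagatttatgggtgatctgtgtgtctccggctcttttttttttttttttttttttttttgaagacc

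Aspn and Ogn, 2 small leucine-rich proteoglycans of connective tissue, lie near each other on chromosome 13 and were joined to each other. In hCG replicate 1 a loop of 50 kb linked the far end of Aspn to that of Ogn, with 38 contacts against 17.9 expected, and Omd shares the anchor of Aspn. It was grouped with a constant loop of 80 to 85 kb that had 25 and 29 contacts before hCG and 16 and 49 after it. The 49 stands on bins of 10 kb and the others on bins of 5 kb. The ratios to expectation were 5.97 and 6.90 before hCG and 4.77 and 3.34 after it. A further constant loop of 90 to 100 kb joined Aspn to the ends of Cenpp and Ippk, with 192 and 163 contacts before hCG and 37 and 154 after it. The value of 37 stands on bins of 10 kb and the others on bins of 25 kb, and the ratios to expectation were 1.95 and 2.16 before hCG and 2.68 and 1.93 after it.

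Mgp, an inhibitor of matrix calcification, was at a constant loop of 50 to 60 kb toward Erp27 by its low end in PMSG replicate 2. The anchor holds an end of Art4 in each library. The loop had 28 and 51 contacts before hCG and 23 and 30 after it, where the 51 stands on bins of 10 kb and the others on bins of 5 kb. The ratios to expectation were 3.65 and 2.93 before hCG and 5.66 and 5.07 after it, and the counting intervals of the groups overlap. The largest FDR of the call in hCG replicate 1 was 0.092. Dcn and Lum, proteoglycans that bind collagen, lay 99.5 and 97.3 kb from the nearest anchor in all 4 libraries, inside 1 or 2 loops. Fbn1, the microfibril protein fibrillin, also had no loop.

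Among the 5 mesenchymal transcription factor genes, Twist2 and Prrx1 had a loop in 1 library each. The loop at the far end of Twist2 in hCG replicate 2 spanned 275 kb with 90 contacts against 40.8 expected, and it was also called in PMSG replicate 1 without reaching the gene's end. Prrx1 had a loop of 250 kb from its start in hCG replicate 1, with 21 contacts against 5.86 expected. Twist1, Tcf21 and Meox1 had none. The nearest anchor to Twist1 lay 233 to 533 kb away, the farthest of the 34 genes, and that to Meox1 at 5.65 to 10.6 kb.

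In all, 5 of the 18 looped genes (Pdgfra, Cyp17a1, Itga8, Eln and Aspn) had an end at an anchor in each of the 4 libraries, or 27.8%, against 27.3% of all looped genes. At the other extreme, 10 of the 18, or 55.6%, were reached in a single library, against 31.7% of all looped genes. A single distinct loop was held by 13 of the 18, or more than the 56.0% that holds over all looped genes.

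The strength of the 13 constant loops at these genes was compared across bin sizes as well, in an edgeR fit over all 3859 constant loops. With hCG over PMSG, 6 had a log2 ratio above 0 and 7 below, with a median of -0.09 against 0.11 over all loops. The values ran from -0.79 for the downstream loop of Pdgfra (SE 0.39, adjusted p = 0.59, edgeR) and -0.77 for the shared loop of Aspn and Ogn (SE 0.32, adjusted p = 0.495, edgeR) to 0.60 for Eln (SE 0.34, adjusted p = 0.645, edgeR) and 0.72 for Mgp (SE 0.33, adjusted p = 0.539, edgeR). None of the 13 was called, nor was any of the 3859 loops (0%), with 359 at an unadjusted p below 0.05 and, by DESeq2, 0 called and 104 at an unadjusted p below 0.05. In the downstream loop of Pdgfra, the lowest ratio to expectation, 2.77, was that of the 25 kb bins in hCG replicate 2, beside 5.65, 6.96 and 5.99 in bins of 10 kb. Without hCG replicate 2 the log2 ratio of this loop was -0.042. The part of bin size in these differences was not tested.

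**Figure D5:**
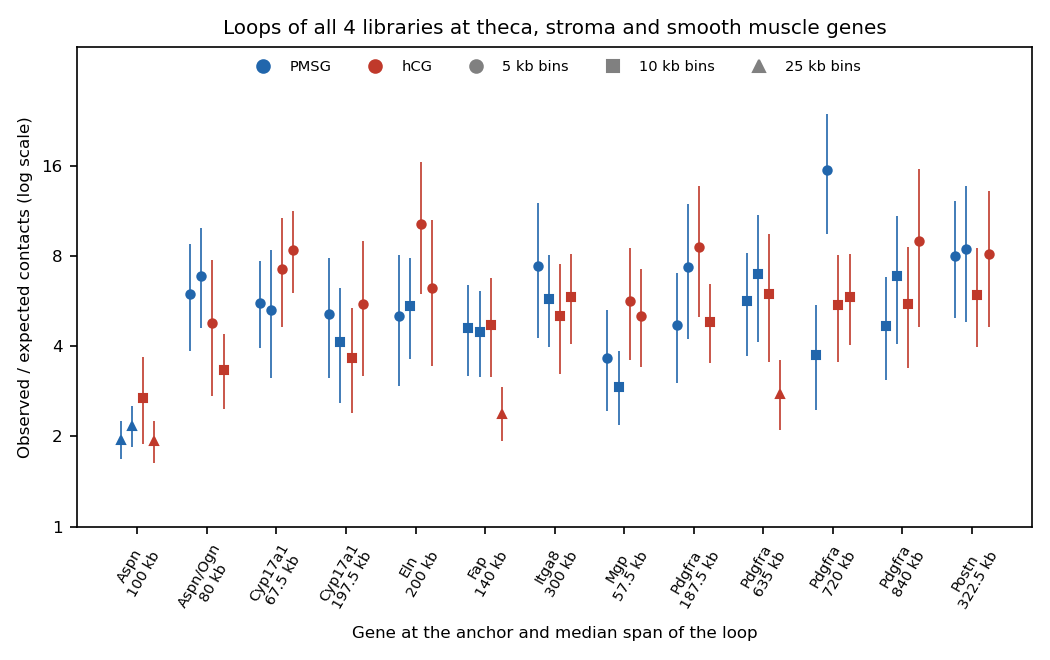
Observed over expected contacts (log axis) of the 13 constant loops at these genes in PMSG replicates 1 and 2 (blue, left to right) and hCG replicates 1 and 2 (red), with 95% Poisson intervals of the observed contacts. Circles, squares and triangles mark bins of 5, 10 and 25 kb. For each loop at least 1 blue interval overlaps a red one, and each triangle lies below the circles and squares of its own loop.

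Genes of related lists were counted in the same way. Over all protein-coding genes 42.2% had a loop, and of those 8.31% were at an hCG-only, 5.46% at a PMSG-only and 41.7% at a constant loop. Of 14 other contractile genes, 12 had a loop. Of these 12, 6 were at constant loops. Cald1, the thin filament regulator caldesmon, was at a PMSG-only loop of 460 and 475 kb. It had 21 contacts against 4.78 expected in PMSG replicate 1 and 48 against 14.3 in PMSG replicate 2. The 21 stands on bins of 10 kb and the 48 on bins of 25 kb. Of 8 steroid genes, 6 had a loop, and Star, Cyp11a1 and Scarb1 were at constant loops, with none at an hCG-only or PMSG-only loop. Of 12 other stroma genes, 8 had a loop, and 5 of these 8 were at constant loops (Col1a1, Col1a2, Col3a1, Fbln2 and Sparc). Besides its constant loop, Col1a1, a collagen chain, was at a PMSG-only loop of 35 kb with 28 and 17 contacts. Nr2f2, a nuclear receptor of stroma and theca, was at 2 hCG-only loops, 875 kb long with 38 contacts in each library and 45 and 40 kb long with 20 and 17 contacts.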

How the data were processed

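Micro-C loop lists of 2 PMSG and 2 hCG libraries, grouped by their titles, were used as deposited. BWA, Juicer and the build mm10 are named in the submitters' processing notes, and per the file headers juicer_tools 1.22.01 wrote the lists. Settings of the loop caller were not given in the sources used here. Each pixel has its observed contacts deposited as a raw count. The expected contact signal is given per the file headers from 4 neighbourhoods (donut here, bottom left as an alternative). The q-value of each comparison is deposited, and all were below 0.1. The authors' collapse score was not used. Contacts can include PCR copies.

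Gene ends came from RefSeq (GRCm38.p6, the assembly of mm10), and strand and promoters from its promoter table, which holds 21 of the 34 genes; the low or high end is named for the rest, and no exon or UTR could be assigned. Matching of loops of different lists within 20 kb, and connected sets of such matches, gave 12942 distinct loops. The members and lists were chosen with earlier results of these data known. All 34 genes are named; partners are the genes at the other anchor; other list genes are named where they met an hCG-only or PMSG-only loop. Loops inside a gene body, and those sharing an anchor with a class loop, were added after their values were seen.

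Strength was tested with edgeR 4.0.16 (R 4.3.3; quasi-likelihood, log donut expectation as offset), and DESeq2 1.42.0 was an alternative. The fit was tested on simulated data. The planned fit on identical pixels held none of the 34 genes, so the sets of the same bin size and of all constant loops are printed. Counts and spans were compared over libraries by exact permutation tests, two-sided, for which the smallest p is 0.333. Other steps used Python 3.11.15, pandas 2.3.3, scipy 1.17.1 and matplotlib 3.10.9. Alternatives were other match distances, FDR limits, list lengths, gene end rules, bins, offsets and left-out libraries.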

Additional observations from a re-analysis of the deposited data

How the results depend on the processing

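The number of genes at hCG-only loops (1) fell to 0 with all FDR values under 0.01, in 5 kb bins and in bins of 5 and 10 kb. Over all looped genes the hCG-only share was then 8.05%, 5.86% and 6.35%, against 8.31%. The number ran from 1 to 5 over the lists with a library left out. Without hCG replicate 1 it was 5 (Acta2, Cnn1, Myocd, Pdgfra and Pdgfrb) and without hCG replicate 2 it was 3. The number at PMSG-only loops (2) was 4 with a match within 50 kb, 1 with lists of equal length, 1 at transcription starts, 0 in 5 kb bins and 0 in bins of 5 and 10 kb. Over all looped genes the PMSG-only share was, in the same order, 4.87%, 5.58%, 4.58%, 3.04% and 4.14%, against 5.46%. The number ran from 2 to 4 with a library left out, and was 4 without either PMSG replicate. A class then rests on 1 library of the reduced group, and over all looped genes the hCG-only share is 25.9% without hCG replicate 1. The Acta2 loop leaves its class in lists of equal length, and the hCG-only loop of Pdgfra at an FDR of 0.01. The number at constant loops (9) was 4 where anchors had to overlap, 3 at transcription starts and 1 in 5 kb bins, and 8 to 9 with a library left out.

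The difference in genes with a loop was 0 in lists of equal length, and that in loops at these genes was 0 in 5 kb bins and 0.5 for distinct loops wherever called. The difference in span turned to -237.5 kb in 10 kb bins, -66.9 kb for means and, with a library left out, ran from -11.25 kb without hCG replicate 1 to 63.75 kb.

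No strength result at these genes was called under any setting run, the replicate block included: 0 of 13 loops with it and 0 without it. The correlation of same-number deviations was -0.016 over identical pixels. Counting error at few contacts can hide a pairing, so this value cannot tell whether the replicate numbers pair the samples. Signs turned, without a call, for 7 constant loops. With a library left out, the log2 ratio ran from -0.093 to 0.38 for Aspn, from -0.32 to 0.28 for Cyp17a1 to Cnnm2 and from -0.92 to 0.061 for Fap. For Pdgfra it ran from -0.084 to 0.72 (840 kb loop), -1.44 to 0.59 (720 kb loop) and -0.35 to 0.60 (190 kb loop). The bottom-left expectation gave -0.26 for the last and 0.29 for Postn. The causes were not tested. TMM totals were not run on mixed bins. Most pixels hold few contacts, and a loop missing from a list can be a missed call.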
